A study of Homo sapiens with 6 samples.

Results

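The 111 genes described here lie along 23.6 Mb of human chromosome 12, from DNM1L on the short arm, across the centromere, to NABP2 on the long arm (GRCh38, starts between 32679200 and 56229854). They are the protein-coding genes of that segment whose mean value over the 6 RNA sequencing libraries was at least 150, and they were taken from 60617 gene IDs in the deposited files. The segment holds 256 protein-coding genes, of which 125 were under that mean and 20 carried a symbol of a family left out, 8 of these at a mean of at least 150 (IGFBP6, ATP5MC2, HOXC10, HOXC6, ITGA5, RPS26, ERBB3 and RPL41). The segment was selected on the measured difference between the resistant lines PBRT16 and PBRT15 in these same libraries, so that difference is given below only as a description. The comparisons of either line with the parental cells use the same PBRT15 and PBRT16 libraries and are therefore not independent of that choice.

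RNA was sequenced from 1205LuTR, a human BRAF V600E melanoma cell line that carries a GAL4-ELK1 reporter of ERK pathway output. Parental 1205LuTR cells, labelled as drug sensitive, received the vehicle DMSO (2 libraries). PBRT15 (2 libraries) and PBRT16 (2 libraries) are lines derived from 1205Lu tumors that had become resistant to a paradox breaker, a RAF inhibitor designed not to activate ERK signaling in cells with wild-type BRAF, and both were sampled in 500 nM of the paradox breaker PLX8394. Each group is a single line, so resistance, line, derivation from a tumor grown in vivo and drug exposure cannot be told apart. Separate cultures are not stated for the libraries of a group, and the p-values therefore cover only the variation among these 6 libraries, which may be technical.

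Neighboring genes on a chromosome arm usually have unrelated functions and separate promoters, and in a given cell type their RNA levels are largely set gene by gene. The segment is known for housekeeping genes such as the alpha tubulins, SP1, HNRNPA1, CDK2 and the myosin light chain MYL6, and for the type II keratins and the HOXC cluster.

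Library totals of the deposited normalized values were between 27877963 and 29580752, and neither the read depth nor the reads behind a value are given, so no counting interval was computed. The melanocyte transcription factor SOX10 had values of 4360.5 and 4103 in the parental libraries, 0 and 0.791 in PBRT15 and 1.49 and 0.778 in PBRT16. The summed value of 11 melanocyte lineage markers was 18440 to 21476 in parental, 1480 to 1516 in PBRT15 and 2640 to 2664 in PBRT16 libraries, with TYR listed at 0 in all 6. SOX10, S100B, MIA and ERBB3 made up most of the parental sum, whereas MITF stood at 109 and 113 in parental, 823 and 927 in PBRT15 and 2210 and 2159 in PBRT16, most of the sum in both lines. The summed value of 10 fibroblast markers was 6046 to 6955, 136379 to 146756 and 18815 to 25127 in the same order. PDGFRA made up most of the parental sum, COL1A1, COL1A2 and THY1 most of the PBRT15 sum, and COL1A1 and PDGFRB most of the PBRT16 sum. THY1 stood at 0 and 4.46 in parental, 19573 and 19758 in PBRT15 and 8.14 and 6.84 in PBRT16, and PDGFRA at 6708 and 5673 in parental and 3324 and 4339 in PBRT16. The immune list of 10 genes summed to between 819.6 and 3136, nearly all of it CD68, with CD3E and CD3D listed at 0. The endothelial list of 8 reached 21.2 to 252.7 and the keratinocyte list of 8 reached 292.2 to 370.2. The part of these markers in the segment values was not tested, and in bulk RNA fewer cells of a type and less RNA per cell cannot be told apart.

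The first question was whether members stood at another level in each resistant line than in parental cells. Relative to the parental mean, the median member stood at log2 levels of 0.74 and 0.70 in the PBRT15 libraries, and at -0.06 and -0.03 in the PBRT16 libraries. The parental libraries themselves stood at -0.01 and 0.01. The PBRT15 libraries thus lay apart from the other 4, while the median over all 16565 genes tested stayed within 0.01 of 0 in each library. Members held 0.958% and 0.998% of the total value in parental, 1.52% and 1.46% in PBRT15, and 1.00% and 1.00% in PBRT16 libraries.

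**Figure D1:**
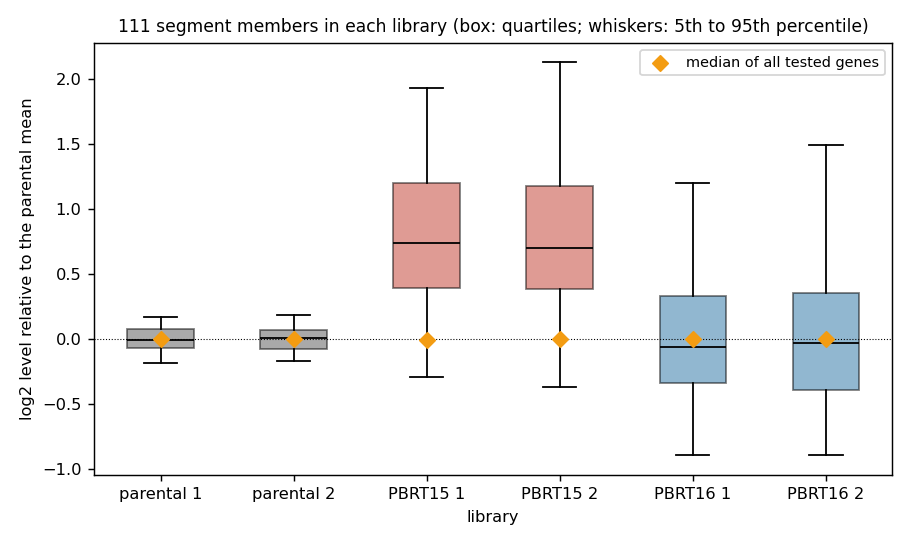
Log2 levels of the 111 members relative to the parental mean (y axis) in each of the 6 libraries (x axis); boxes give quartiles with the median line, whiskers the 5th to 95th percentile, and diamonds the median of all tested genes. The PBRT15 boxes sit at medians of 0.74 and 0.70, and the PBRT16 boxes at -0.06 and -0.03.

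In PBRT15, 70 of the 111 members rose against parental cells and 4 fell (limma, adjusted p of at most 0.05), and over all tested genes 21.6% rose and 19.5% fell. Their median log2 difference was 0.71, a 1.63-fold higher level, against -0.005 over all tested genes. Both PBRT15 libraries lay above both parental libraries for 95 members (37.0% of all tested genes did so) and below both for 10 (37.9%). The members that fell were DNM1L, SMARCD1, ZNF385A and IKZF4. Of the 70 rises, 39 kept an adjusted p of at most 0.05 whichever library was left out, while all 4 falls lost it at least once. With a fold of at least 2 also required, 35 rose and 1 fell (13.8% and 9.85% of all tested genes).

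In PBRT16, 20 members rose and 17 fell against parental cells, and over all tested genes 21.1% rose and 19.0% fell. These shares, 18.0% and 15.3% of the members, were close to that background. The median log2 difference was -0.06, and 0.08 under upper-quartile scaling, which moved the median of all genes by 0.13. The split of calls turned with the scaling, to 23 higher and 13 lower with upper-quartile and to 17 higher and 21 lower with library-total scaling. Libraries did not overlap for 36 members that were above parental (37.7% of all tested genes) and 49 that were below (38.3%). With a fold of at least 2 also required, 10 rose and 4 fell (13.1% and 9.95%). With 1 library left out, 6 of the 20 rises and 6 of the 17 falls kept their calls throughout.

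Between the lines, PBRT16 libraries lay below PBRT15 libraries for 104 of the 111 members and above them for 1, NABP2 (31.8% and 30.9% of all tested genes). The median log2 difference of PBRT16 from PBRT15 was -0.79, a 1.73-fold lower level. The segment was chosen on this difference, so the counts at an adjusted p of at most 0.05, 67 lower and none higher (8.27% and 7.5% of all tested genes), are no test of it and nothing is read from them. The same holds for the 30 lower and none higher at a fold of at least 2 (4.77% and 4.49%).

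Members fell into 9 orders of the 3 groups when each pair of groups was compared for overlap. For 35 members PBRT15 lay above and PBRT16 below both parental libraries, an order held by 3.37% of all tested genes. Both lines lay above parental with PBRT16 below PBRT15 for 33 members, an order held by 1522 of the 16565 tested genes. PBRT15 alone stood above overlapping parental and PBRT16 libraries for 24. Over all tested genes, PBRT15 lay above parental while PBRT16 overlapped parental in 1102. The orders of the 35, the 33 and the 24 all place PBRT16 below PBRT15, the difference on which the segment was chosen. Their counts therefore test nothing, and nothing is read from their excess over all tested genes. Shares over all tested genes were not computed for the other orders, and nothing is read from their counts. The 35 were KIF21A, SLC2A13, GXYLT1, YAF2, PPHLN1, PUS7L, ARID2, RPAP3, VDR, SENP1, PFKM, KANSL2, CCNT1, DDX23, PRKAG1, TUBA1B, MCRS1, PRPF40B, LARP4, ATF1, SLC11A2, SMAGP, ATG101, EIF4B, SPRYD3, ZNF740, PFDN5, AAAS, SP1, ATF7, CBX5, HNRNPA1, PYM1, SUOX and RNF41. The 33 were ZCRB1, IRAK4, TWF1, SCAF11, SLC38A1, SLC38A2, AMIGO2, SLC48A1, HDAC7, ADCY6, CACNB3, LMBR1L, DNAJC22, SPATS2, TMBIM6, NCKAP5L, CERS5, DAZAP2, SCN8A, TNS2, RARG, MFSD5, PRR13, MAP3K12, TARBP2, SMUG1, COPZ1, ORMDL2, MMP19, RAB5B, ESYT1, MYL6B and MYL6. The 24 were ALG10, ASB8, ARF3, KMT2D, TUBA1C, TROAP, RACGAP1, ASIC1, COX14, DIP2B, LETMD1, CSRNP2, ACVR1B, KRT8, KRT18, ESPL1, MYG1, PCBP2, CALCOCO1, GDF11, SARNP, DGKA, CDK2 and SMARCC2. In ANO6, TUBA1A and LIMA1 both lines lay above parental without separating from each other. Both lines lay below parental, with PBRT16 lowest, in YARS2, CPNE8, TMEM106C, FKBP11, FMNL3, SMARCD1, ZNF385A and IKZF4. DNM1L and BLOC1S1 were below parental in both lines without separating. In ALG10B, CD63, DNAJC14 and PA2G4 PBRT16 lay below overlapping parental and PBRT15 libraries, NABP2 separated only PBRT16 above PBRT15, and all groups overlapped in ZC3H10.

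The level differences were next followed along the chromosome in 11 consecutive runs of members, 10 genes each and 11 in the last. Median log2 differences of PBRT15 from parental were 0.27 in the run from DNM1L to PPHLN1, 0.99 from ZCRB1 to AMIGO2, 0.67 from RPAP3 to CCNT1, 0.95 from ADCY6 to TUBA1A and 0.95 from TUBA1C to RACGAP1. They were 0.63 from ASIC1 to LETMD1, 0.95 from CSRNP2 to TNS2, 1.12 from SPRYD3 to PRR13, 0.87 from PCBP2 to ZNF385A, 0.52 from BLOC1S1 to CDK2 and 0.40 from RAB5B to NABP2. The PBRT15 medians were thus above 0 in all 11 runs, and lowest in the first run and the last 2. For PBRT16 against parental the run medians ranged from -0.56 in the first run to 0.45 in the second, with the third at -0.40 and the rest between -0.15 and 0.12. The PBRT16 medians of the runs starting at ADCY6, ASIC1, CSRNP2 and BLOC1S1 changed sign under upper-quartile scaling.

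**Figure D2:**
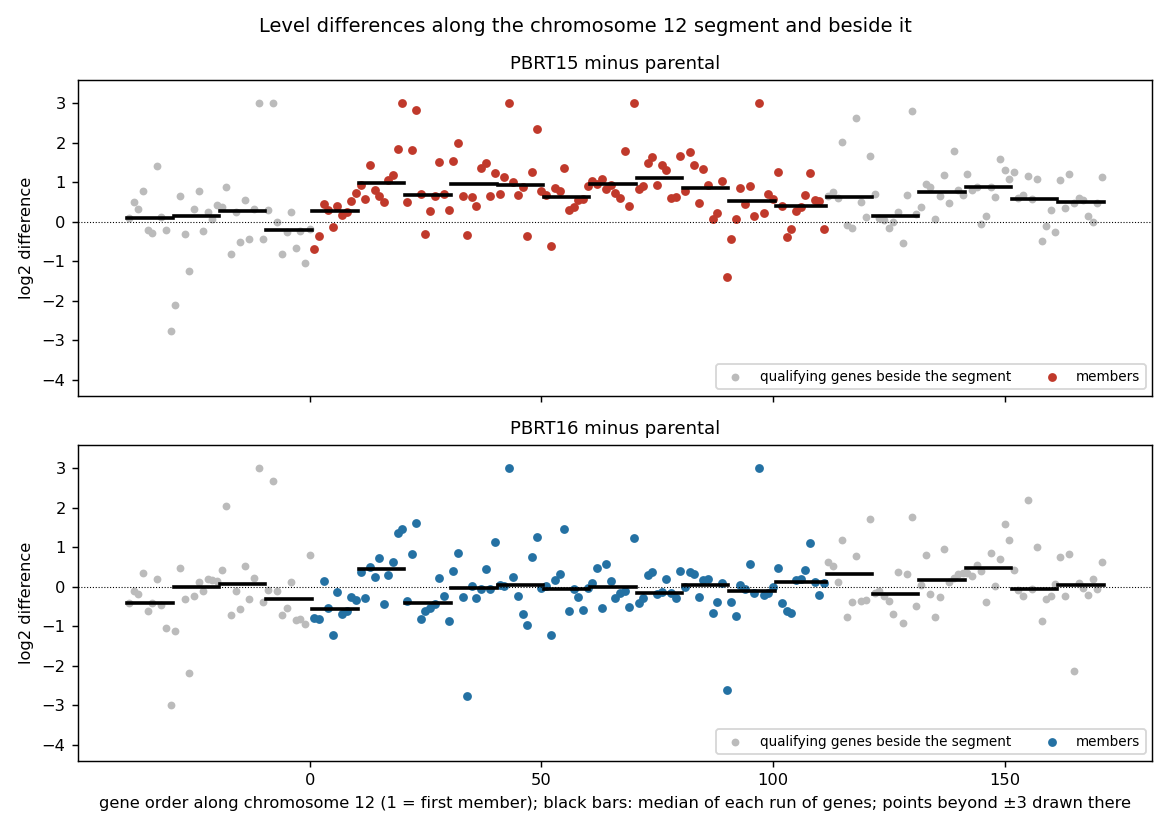
Log2 differences from parental cells (y axis) of PBRT15 (top) and PBRT16 (bottom) by gene order along chromosome 12 (x axis, 1 is the first member), with members in color, qualifying genes on either side in gray, and bars for run medians. The PBRT15 bars of members lie between 0.27 and 1.12, and those of PBRT16 between -0.56 and 0.45.

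The first 3 members lie before the centromere, and DNM1L and YARS2 among them were below parental in PBRT15. DNM1L, the dynamin-related GTPase of mitochondrial fission (chromosome 12, 32679200 to 32745650 on the plus strand), had values of 7223 and 6648 in parental, 4175 and 4459.8 in PBRT15 and 3911 and 4186 in PBRT16 libraries. It fell in PBRT15 (log2 difference -0.68 ± 0.12, SE, adjusted p = 0.0113) and in PBRT16 (-0.78 ± 0.12, adjusted p = 0.00782). Its PBRT15 call was lost without parental 1 or PBRT15 1 (adjusted p up to 0.0574). YARS2, the mitochondrial tyrosyl-tRNA synthetase, stood at 899 and 801 in parental, 752 and 576 in PBRT15 and 541 and 439 in PBRT16, and fell in PBRT16 (log2 -0.80 ± 0.19, adjusted p = 0.0297, up to 0.129 without any one parental or PBRT16 library). ALG10, an N-glycan glucosyltransferase that may share reads with its near-copy ALG10B, stood at 219 and 193 in parental, 282 and 281 in PBRT15 and 198 and 266 in PBRT16 and passed neither test. The median of these 3 was -0.37 in PBRT15 against 0.72 for the 108 members beyond the centromere, with no test of that difference.

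The chromosome on either side of the segment gave lower medians of the same sign. The 131 qualifying genes before the segment had a median log2 difference of 0.28 in PBRT15, with 46 higher and 12 lower, and the 306 after it had 0.45, with 141 higher and 19 lower. The 9767 qualifying genes of other chromosomes had -0.05. Over all tested genes 21.6% were higher and 19.5% lower in PBRT15, against 35.1% and 9.16% before the segment and 46.1% and 6.21% after it. In runs of 10 genes, 28 of 30 runs after the segment and 12 of 13 before it were above 0 in PBRT15. PBRT16 was below PBRT15 in 30 of 30 runs after the segment, at -0.74 to -0.29, and in 12 of 13 before it. Among 964 runs on other chromosomes, 70 reached 0.5 or more in PBRT15 against parental, while 9 of the 11 member runs, 14 of the 30 runs after the segment and 1 of the 13 before it did. The highest run medians were 1.31 after and 1.72 before the segment, above the 1.12 of the highest member run.

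The nearest qualifying genes on either side were looked at singly. Just before DNM1L, BICD1 had values of 3516 and 3367 in parental, 1854 and 1523 in PBRT15 and 1852 and 1714 in PBRT16, and FGD4 had 195 and 195 in parental, 141 and 209 in PBRT15 and 319 and 366 in PBRT16. RESF1 had 2822 and 1988 in parental, 2166 and 1894 in PBRT15 and 1405 and 1276 in PBRT16. None of these had PBRT15 as its highest group without overlap. Just after NABP2, the citrate synthase gene CS was highest in PBRT15, at 7646 and 8007 in parental, 12516 and 11329.6 in PBRT15 and 8923 and 8235 in PBRT16. ANKRD52 had 4296 and 4874 in parental, 7888 and 6673 in PBRT15 and 7552 and 6646 in PBRT16, and COQ10A had 156 and 176 in parental, 275 and 293 in PBRT15 and 245 and 233 in PBRT16. Members just above the mean threshold were SLC48A1, KRT8 and CPNE8 with means of 150.4, 151.3 and 157.2, and the genes just below it were NR4A1, CSAD and SLC4A8 with 149.3, 145.8 and 138.2.

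Transcription factors made up 10 members, with 5 higher and 2 lower in PBRT15, and 2 lower in PBRT16. Counts by role or family, here and below, stand beside 21.6% higher and 19.5% lower of all tested genes in PBRT15. In PBRT16 those shares were 21.1% and 19.0%. SP1, a factor that binds GC-rich promoters of housekeeping genes, had values of 2119.8 and 2197 in parental, 3199.7 and 3516 in PBRT15 and 1709.6 and 1844 in PBRT16 libraries. PBRT15 lay above and PBRT16 below parental without overlap, and the rise in PBRT15 was 0.64 ± 0.12 (SE, log2, adjusted p = 0.014, up to 0.0665 without parental 1, parental 2 or PBRT15 2). In PBRT16 the difference of -0.28 ± 0.12 did not pass (adjusted p = 0.122). RARG, a retinoic acid receptor, stood at 445 and 413 in parental, 1145 and 1284 in PBRT15 and 524 and 537 in PBRT16, and it rose in PBRT15 by 1.498 ± 0.12 (adjusted p = 0.0013). VDR, the vitamin D receptor, stood at 172 and 179 in parental, 349 and 234 in PBRT15 and 85.9 and 114 in PBRT16, and with its spread in PBRT15 neither difference passed (adjusted p = 0.0807 and 0.0538).

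ZNF385A and IKZF4 were lower in both lines. ZNF385A, a zinc finger RNA- and p53-binding protein, fell from 473 and 504 in parental to 171 and 197 in PBRT15 and 97.2 and 64.1 in PBRT16. The log2 differences were -1.41 ± 0.23 (adjusted p = 0.009, 0.0532 without parental 2) and -2.61 ± 0.23 (adjusted p = 0.00156). IKZF4, an Ikaros family factor, stood at 255 and 266 in parental, 199.7 and 203 in PBRT15 and 172 and 171 in PBRT16. Its falls passed narrowly (adjusted p = 0.0457 and 0.0118), and the PBRT15 call was lost without any one library (up to 0.138), and the PBRT16 call without parental 2 or either PBRT16 library (up to 0.0614).

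Chromatin genes numbered 10, with 6 higher and 1 lower in PBRT15, and 1 higher and 2 lower in PBRT16. HDAC7, a class IIa histone deacetylase, had values of 228 and 253 in parental, 1694 and 1760.4 in PBRT15 and 702 and 794 in PBRT16. It rose in both lines, by 2.84 ± 0.13 (SE, log2, adjusted p = 0.000281) and 1.63 ± 0.13 (adjusted p = 0.00122), in every setting with a library left out. KMT2D, a histone H3 lysine methyltransferase of enhancers, stood at 1589 and 1372 in parental, 4174 and 3423 in PBRT15 and 1351 and 1482 in PBRT16. The rise in PBRT15 was 1.36 ± 0.16 (adjusted p = 0.00359), and in PBRT16 it overlapped parental. CBX5, the heterochromatin protein HP1 alpha, stood at 6727 and 6533 in parental, 7005 and 6844 in PBRT15 and 4125 and 4333 in PBRT16, and fell in PBRT16 (log2 difference -0.65 ± 0.11, adjusted p = 0.00992, up to 0.0556 without parental 1 or PBRT16 1).

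ARID2, SMARCC2 and SMARCD1 encode subunits of BAF and PBAF, the SWI/SNF complexes that move nucleosomes, and they did not share a direction. ARID2, specific to PBAF, had values of 669 and 629 in parental, 893 and 936 in PBRT15 and 453 and 515 in PBRT16. Its groups did not overlap, with a rise of 0.49 ± 0.13 in PBRT15 (adjusted p = 0.0329, lost without any one library, up to 0.119) and a difference of -0.42 ± 0.13 in PBRT16 (adjusted p = 0.0502). The core subunit SMARCC2 stood at 2465 and 2426 in parental, 3385 and 3835 in PBRT15 and 2465 and 2877 in PBRT16, a rise in PBRT15 of 0.56 ± 0.14 (adjusted p = 0.0313, up to 0.118 without any one parental or PBRT15 library). SMARCD1 stood at 2219 and 2239 in parental, 1511 and 1434 in PBRT15 and 1006 and 919.6 in PBRT16, lowest in PBRT16. It fell in PBRT15 (log2 difference -0.60 ± 0.11, adjusted p = 0.0149, up to 0.0637 without parental 1, parental 2 or PBRT15 2) and in PBRT16 (-1.21 ± 0.11, adjusted p = 0.00195). The 24 BAF and PBAF genes outside the segment include BCL7A, also on chromosome 12. Of these genes 4 rose and 5 fell in PBRT15 (16.7% and 20.8%, against 21.6% and 19.5% of all tested genes). In PBRT16 3 rose and 4 fell (12.5% and 16.7%, against 21.1% and 19.0%). Among them PHF10 fell (5402 and 5879 in parental, 1886 and 1629 in PBRT15 and 1759 and 1866 in PBRT16, log2 -1.68 in PBRT15) and DPF3 rose in PBRT15 (means ± SD, n = 2, of 66.9 ± 11.4 in parental and 465 ± 66.1 in PBRT15, log2 2.78).

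RNA processing and translation was the role with the most members, 18, of which 9 rose and none fell in PBRT15 while none rose and 5 fell in PBRT16. HNRNPA1, an abundant splicing regulator whose reads may be shared with its many pseudogenes, had values of 35083 and 38125 in parental, 45462 and 40045 in PBRT15 and 29425 and 26662 in PBRT16. PBRT15 lay above and PBRT16 below parental, though neither difference passed (log2 0.22 ± 0.13, adjusted p = 0.24, and -0.38 ± 0.13, adjusted p = 0.076). PCBP2, a poly(C)-binding protein, stood at 5872 and 5866 in parental, 11127 and 9255 in PBRT15 and 5933 and 5803 in PBRT16. PBRT15 cells had a rise of 0.79 ± 0.14 (adjusted p = 0.0106, up to 0.0543 without either parental library), and PBRT16 overlapped parental. CCNT1, the cyclin subunit of the elongation factor P-TEFb, was picked out after its values were seen. It stood at 1487 and 1329 in parental, 1735 and 1739 in PBRT15 and 796 and 749.6 in PBRT16 and fell in PBRT16 (log2 difference -0.86 ± 0.12, adjusted p = 0.00578).

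For hnRNP and related genes outside the segment, 1 of 23 rose and 5 fell in PBRT15 (median -0.21), whereas the counts in PBRT16 were 1 and 6 (median -0.33). In PBRT15 these were 4.35% and 21.7%, against 21.6% and 19.5% of all tested genes. In PBRT16 they were 4.35% and 26.1%, against 21.1% and 19.0%. The single rise was PCBP3 (171 and 135 in parental, 345 and 389.6 in PBRT15, 533 and 570.4 in PBRT16), and the lowest log2 difference in PBRT15 was that of HNRNPD (15019.5 and 12966 in parental, 9841 and 8187 in PBRT15 and 8931 and 7369 in PBRT16). HNRNPA1 and PCBP2 in PBRT15, at 0.22 and 0.79, thus stood above that outside median, and in PBRT16, at -0.38 and -0.00, PCBP2 alone did.

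The 4 chaperones gave 2 rises in PBRT15, and 1 rise and 1 fall in PBRT16. PFDN5, a subunit of prefoldin, the complex that hands unfolded actin and tubulin to the chaperonin, had values of 1597 and 1671 in parental, 4618 and 4264 in PBRT15 and 1429.5 and 1540.0 in PBRT16. It rose in PBRT15 by 1.44 ± 0.12 (SE, log2, adjusted p = 0.0013), a 2.72-fold level, and PBRT16 lay just below parental (log2 -0.14 ± 0.12, adjusted p = 0.388). Of 7 prefoldin and prefoldin-like genes on other chromosomes none rose and 5 fell in PBRT15, with a median of -0.62, and 3 fell in PBRT16, with a median of -0.37. PFDN4 fell in both lines, from 2338 and 2335 to 884 and 671 in PBRT15 and 767 and 729.7 in PBRT16 (log2 -1.60 and -1.64). The difference between PFDN5 and the others was not itself tested.

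FKBP11, a prolyl isomerase of the endoplasmic reticulum, had values of 748 and 786 in parental, 625 and 588 in PBRT15 and 109 and 114 in PBRT16. It fell in PBRT16 (log2 difference -2.77 ± 0.11, SE, adjusted p = 0.000207), and the PBRT15 difference of -0.34 ± 0.11 did not pass (adjusted p = 0.0674). DNAJC22, a membrane-spanning J-domain protein, stood at 53.0 and 66.9 in parental, 941 and 1173 in PBRT15 and 586 and 655 in PBRT16. Its PBRT15 level rose by 4.12 ± 0.19 (adjusted p = 0.000281) and in PBRT16 by 3.36 ± 0.19 (adjusted p = 0.000464). DNAJC22 reached the mean threshold for members only through the lines where it was high, so no support is drawn from it. DNAJC14 stood at 1699.8 and 1876 in parental, 2151 and 1825 in PBRT15 and 1558 and 1667 in PBRT16 and passed neither test.

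**Figure D3:**
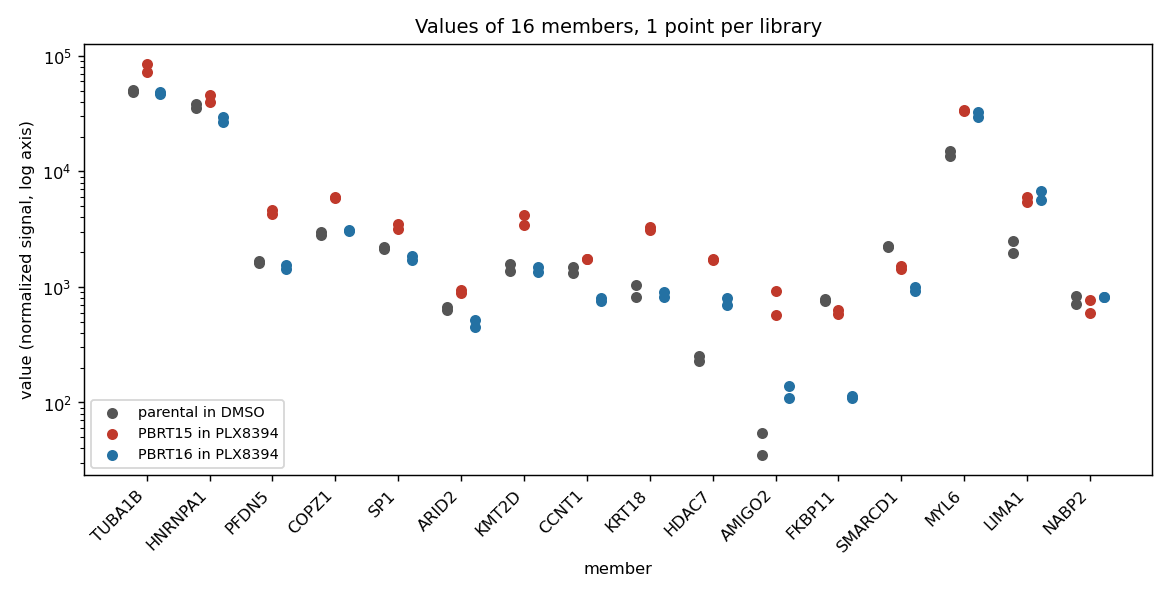
Deposited normalized values (y axis, log scale) of 16 members (x axis) picked to show several orders of the groups, 1 point per library, in parental (gray), PBRT15 (red) and PBRT16 (blue) cells. PFDN5 and KRT18 are higher in PBRT15 alone, FKBP11 and SMARCD1 fall in order from parental to PBRT16, and MYL6 and LIMA1 are higher in both lines.

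Promoters, 250 bases before to 50 after the RefSeq start (GRCh38.p14), were found for 93 of the 111 members. They are shown for AMIGO2 and PFDN5, which fell far from PBRT15 to PBRT16, and for FKBP11, which lay below parental in both lines, and NABP2, which lay above PBRT15 in PBRT16. Capitals mark the SP1 core GGGCGG, the box named CCAAT, and the AP-1 site TGANTCA, each read on either strand, and the promoters shown hold neither the TATA box TATAAA nor the cyclic AMP response element TGACGTCA.
AMIGO2 (minus strand, chr12:47079902-47080201): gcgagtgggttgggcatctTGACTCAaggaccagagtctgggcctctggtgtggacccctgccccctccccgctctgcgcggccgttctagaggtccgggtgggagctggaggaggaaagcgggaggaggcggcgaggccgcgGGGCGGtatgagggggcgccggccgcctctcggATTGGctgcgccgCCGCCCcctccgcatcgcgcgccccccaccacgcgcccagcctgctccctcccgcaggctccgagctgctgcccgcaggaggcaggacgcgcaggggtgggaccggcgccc
PFDN5 (plus strand, chr12:53295292-53295591): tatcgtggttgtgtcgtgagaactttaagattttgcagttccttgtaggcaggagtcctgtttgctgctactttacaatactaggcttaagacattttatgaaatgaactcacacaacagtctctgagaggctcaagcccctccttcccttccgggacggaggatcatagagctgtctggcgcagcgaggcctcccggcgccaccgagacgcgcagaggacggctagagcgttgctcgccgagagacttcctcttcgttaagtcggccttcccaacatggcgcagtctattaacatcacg
FKBP11 (minus strand, chr12:48925443-48925742): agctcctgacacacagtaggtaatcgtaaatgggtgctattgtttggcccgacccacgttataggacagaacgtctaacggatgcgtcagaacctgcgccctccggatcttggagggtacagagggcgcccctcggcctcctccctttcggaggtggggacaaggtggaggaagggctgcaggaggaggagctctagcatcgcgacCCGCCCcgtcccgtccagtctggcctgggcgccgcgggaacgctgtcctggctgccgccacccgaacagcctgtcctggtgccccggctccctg
NABP2 (plus strand, chr12:56224092-56224391): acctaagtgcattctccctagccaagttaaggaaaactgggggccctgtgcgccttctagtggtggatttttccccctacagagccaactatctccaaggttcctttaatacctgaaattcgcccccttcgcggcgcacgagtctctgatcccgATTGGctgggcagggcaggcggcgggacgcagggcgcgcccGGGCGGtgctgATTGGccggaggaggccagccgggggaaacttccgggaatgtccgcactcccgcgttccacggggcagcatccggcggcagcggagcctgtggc

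The AMIGO2 window holds the AP-1 site once, the CCAAT box once and the SP1 core at 2 places. NABP2 holds the SP1 core once and the CCAAT box at 2 places, FKBP11 holds the SP1 core once, and PFDN5 holds none of these motifs. The SP1 core was in 74 of 93 member promoters (79.6%), in 44.6% of all 27305 promoters and in 72.4% of the 8050 promoters of qualifying genes on other chromosomes. The CCAAT box was in 38 (40.9%), against 35.7% and 36.6%, and the TATA box in 4 (4.30%), against 11.95% and 4.92%. The AP-1 site was in 7 (7.53%), against 7.76% and 4.07%, and the cyclic AMP response element in 1 (1.08%), against 1.98% and 3.55%. Median GC content was 64.7% for members and 66.0% for qualifying genes elsewhere. All motifs were searched on both strands, and a match is only a match of letters.

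Tubulin and microtubule genes numbered 7, with 5 higher and none lower in PBRT15 and 2 higher in PBRT16. The alpha tubulin genes TUBA1A, TUBA1B and TUBA1C are near-identical neighbors, so reads may have been divided among them with error. TUBA1B, the highest member by mean value, had 48345 and 50659 in parental, 85511 and 71702 in PBRT15 and 46686 and 48340.4 in PBRT16 libraries. It rose in PBRT15 by 0.66 ± 0.14 (SE, log2, adjusted p = 0.0178, up to 0.0816 without parental 1, parental 2 or PBRT15 1). TUBA1C stood at 14521 and 17845 in parental, 31151 and 22390.4 in PBRT15 and 18094 and 15244 in PBRT16 and passed neither test (adjusted p = 0.0567 in PBRT15). TUBA1A, the neuronal form, stood at 5189 and 4417 in parental, 10020.5 and 12851 in PBRT15 and 8390.4 and 13438 in PBRT16, higher in both lines. Its rises were 1.25 ± 0.28 (adjusted p = 0.0229, up to 0.106 without any one parental or PBRT15 library) and 1.15 ± 0.28 (adjusted p = 0.0288, up to 0.125 without parental 1, parental 2 or PBRT16 2). Of 12 tubulin genes on other chromosomes 5 rose and none fell in PBRT15, with 4 up and 1 down in PBRT16. In PBRT16 TUBB2B rose most among them, from 1935 and 1756 to 9109 and 7543. Among the 5 rises in PBRT15, TUBA8 passed the filter on low values only through PBRT15, where it was high. No support is drawn from TUBA8.

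Actin and adhesion genes were mostly higher in both lines, with 6 of 7 higher in PBRT15, and 5 higher and 1 lower in PBRT16. MYL6, the essential light chain of nonmuscle myosin, had values of 13601 and 14916 in parental, 33709 and 33076 in PBRT15 and 32441 and 29311 in PBRT16. MYL6 rose in PBRT15 by 1.23 ± 0.12 (SE, log2, adjusted p = 0.00224) and in PBRT16 by 1.11 ± 0.12 (adjusted p = 0.00296), and its gene overlaps SMARCC2 by a few bases. LIMA1, an actin cross-linking protein, stood at 2489 and 1971 in parental, 5427 and 5979 in PBRT15 and 6722 and 5673 in PBRT16, and rose by 1.36 ± 0.17 (adjusted p = 0.00456) and 1.48 ± 0.17 (adjusted p = 0.00369). The formin FMNL3 stood at 1051 and 1103 in parental, 833 and 857 in PBRT15 and 579 and 532 in PBRT16, a fall in PBRT16 (log2 difference -0.95 ± 0.11, adjusted p = 0.00383). Myosin light chains outside the segment gave 1 rise of 4 in PBRT15 and 3 of 4 in PBRT16. The PBRT15 rise was MYL3, also among the 3 in PBRT16. MYL3 had values of 3.12 and 0 in parental, 7.95 and 13.3 in PBRT15 and 8.22 and 12.9 in PBRT16. It passed the filter on low values only through the lines where it was high, so no support is drawn from it.

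AMIGO2, a leucine-rich repeat adhesion molecule, and TNS2, a tensin of focal adhesions, were among the largest rises in PBRT15. AMIGO2 had values of 34.9 and 54.9 in parental, 920.2 and 568 in PBRT15 and 109 and 139 in PBRT16. The log2 rises were 4.02 ± 0.34 (adjusted p = 0.00142) and 1.47 ± 0.34 (adjusted p = 0.0253, up to 0.114 without parental 1 or either PBRT16 library). AMIGO2 reached the mean threshold for members only through PBRT15, where it was high, so no support is drawn from it. TNS2 stood at 145 and 177 in parental, 1028 and 1817 in PBRT15 and 306 and 469 in PBRT16, and rose by 3.09 ± 0.36 in PBRT15 (adjusted p = 0.00338) and 1.24 ± 0.36 in PBRT16 (adjusted p = 0.0473, up to 0.186 without any one parental or PBRT16 library).

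Among 13 transporter and membrane genes, 11 rose in PBRT15, and 7 were higher and 3 lower in PBRT16. SLC38A2, a sodium-coupled neutral amino acid transporter, had values of 4105 and 3284 in parental, 11598 and 15266 in PBRT15 and 8429 and 10813 in PBRT16. It rose by 1.86 ± 0.23 (SE, log2, adjusted p = 0.00386) and 1.38 ± 0.23 (adjusted p = 0.00932, 0.0515 without parental 2). TMBIM6, a calcium channel-like protein of the endoplasmic reticulum, stood at 7239.6 and 7189 in parental, 17992 and 16873 in PBRT15 and 11474 and 13011 in PBRT16, and rose by 1.27 ± 0.12 (adjusted p = 0.00207) and 0.76 ± 0.12 (adjusted p = 0.00907, 0.0505 without PBRT16 2). The heme transporter SLC48A1 stood at 81.1 and 61.0 in parental, 271 and 236 in PBRT15 and 134 and 119 in PBRT16. It rose by 1.83 ± 0.19 (adjusted p = 0.00235) and 0.84 ± 0.19 (adjusted p = 0.0229, up to 0.101 without parental 2 or either PBRT16 library). SLC48A1 reached the mean threshold for members only through PBRT15, where it was high, so no support is drawn from it. The counts of rises given for these genes include it.

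Kinase, receptor and signaling genes included 8 of 9 that rose in PBRT15 and 2 that rose in PBRT16. MMP19, a secreted metalloproteinase listed with them, had values of 1.84 and 0 in parental, 562 and 531 in PBRT15 and 390.1 and 386 in PBRT16, so it was at or near 0 in parental cells alone. Its fitted log2 rises of 8.34 and 7.85 (adjusted p = 0.000554 and 0.000632) depend on the pseudocount. MMP19 passed the filter on low values and the member mean only through the lines where it was high, so no support is drawn from it. GDF11, a TGF-beta family ligand, stood at 1045 and 1039.9 in parental, 1882 and 1883 in PBRT15 and 948 and 1224 in PBRT16. The PBRT15 rise was 0.85 ± 0.16 (adjusted p = 0.0133, up to 0.0654 without any one parental or PBRT15 library). RNF41, a ubiquitin ligase for receptors, stood at 1237 and 1239 in parental, 1770.2 and 1791 in PBRT15 and 1056 and 1109 in PBRT16, and rose in PBRT15 by 0.52 ± 0.11 (adjusted p = 0.0179, up to 0.0699 without any one parental or PBRT15 library).

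Vesicle, organelle and melanosome genes gave 4 rises and 1 fall of 10 in PBRT15, and no rise and 3 falls in PBRT16. COPZ1, the zeta subunit of the COPI coat of Golgi vesicles, had values of 2981 and 2793 in parental, 5977 and 5905 in PBRT15 and 3058 and 3095 in PBRT16. It rose in PBRT15 by 1.04 ± 0.11 (SE, log2, adjusted p = 0.00257), while 3 of 11 COPI genes and ARF GTPases elsewhere rose, among them its paralog COPZ2 (299.6 and 255 in parental, 954 and 713 in PBRT15 and 492 and 541 in PBRT16). CD63, a tetraspanin of late endosomes and melanosomes, stood at 16059 and 17583 in parental, 18109 and 17550.0 in PBRT15 and 8829 and 11466 in PBRT16. It fell in PBRT16 (log2 difference -0.74 ± 0.17, adjusted p = 0.0232, up to 0.0996 without parental 1, parental 2 or PBRT16 1). CPNE8, a calcium-dependent membrane-binding copine, stood at 202 and 199.5 in parental, 193 and 173 in PBRT15 and 68.6 and 108 in PBRT16, a fall in PBRT16 (log2 difference -1.21 ± 0.24, adjusted p = 0.0155, up to 0.0787 without either parental library). ESYT1, a lipid-transfer tether at the plasma membrane, stood at 5224 and 5997 in parental, 6761 and 6798 in PBRT15 and 6149 and 6561 in PBRT16, and BLOC1S1, of lysosome-related organelle biogenesis, at 364 and 394 in parental, 278 and 281 in PBRT15 and 255 and 333 in PBRT16. Neither passed in either line.

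**Figure D4:**
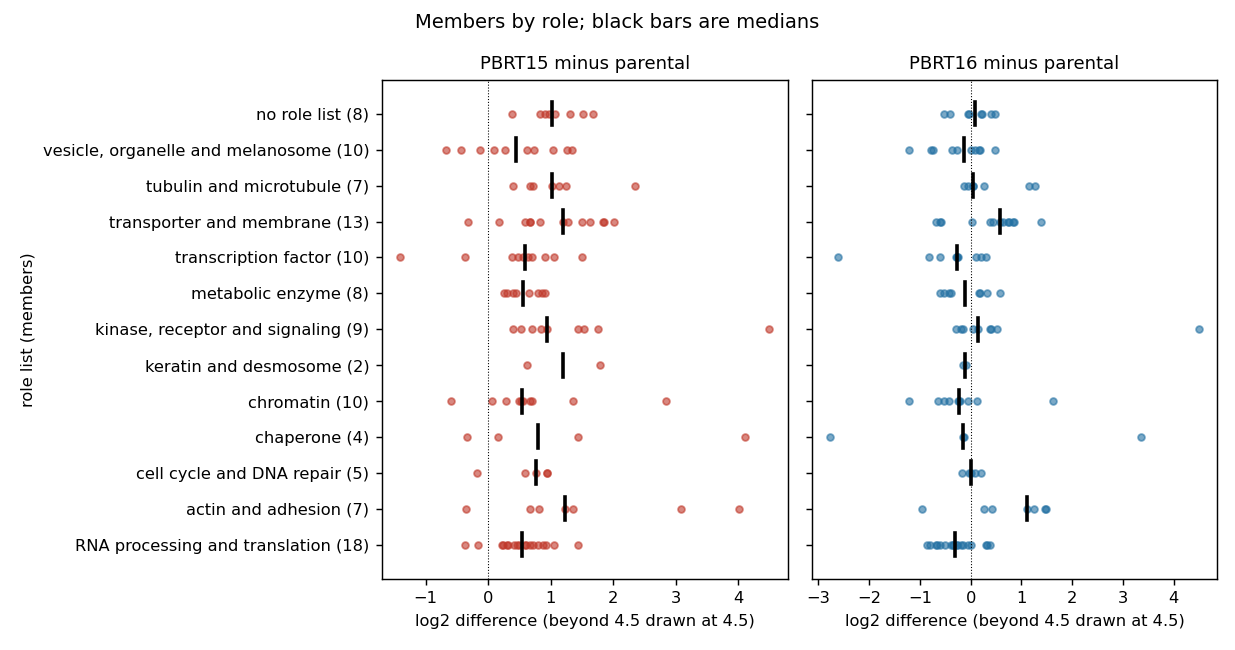
Log2 differences from parental cells (x axis) of each member, in PBRT15 (left) and PBRT16 (right), by role list (y axis, members in brackets), with bars for medians. The actin and transporter lists have medians of 1.23 and 1.197 in PBRT15 and 1.11 and 0.57 in PBRT16, and the RNA list 0.54 and -0.31.

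KRT18 and KRT8 are partner keratins of simple epithelia, adjacent on the chromosome with overlapping ends, and both have many pseudogenes that may take reads. KRT18 had values of 814 and 1049 in parental, 3291 and 3112 in PBRT15 and 907 and 819 in PBRT16. The rise in PBRT15 was 1.79 ± 0.17 (SE, log2, adjusted p = 0.00181), and PBRT16 overlapped parental. KRT8 stood at 123 and 138 in parental, 165 and 242 in PBRT15 and 96.5 and 144 in PBRT16 and passed neither test. Of 3 type I keratins on chromosome 17, KRT14 and KRT15 fell in both lines. KRT14 passed the filter on low values only through the parental libraries, where it was high, so no support is drawn from it.

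Metabolic enzymes gave 4 rises of 8 in PBRT15 and 1 in PBRT16. PFKM, the muscle form of phosphofructokinase, had values of 1937 and 2168 in parental, 3109.6 and 3314 in PBRT15 and 1755 and 1305 in PBRT16, without overlap. PBRT15 cells had a rise of 0.65 ± 0.18 (SE, log2, adjusted p = 0.0436, up to 0.167 without any one parental or PBRT15 library). ORMDL2, a regulator of sphingolipid synthesis, stood at 667 and 732 in parental, 1269 and 1369.8 in PBRT15 and 1115 and 972 in PBRT16, and rose by 0.92 ± 0.13 (adjusted p = 0.00679) and 0.58 ± 0.13 (adjusted p = 0.0263, up to 0.112 without any one parental or PBRT16 library).

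Cell cycle and DNA repair genes gave 2 rises of 5 in PBRT15 and no call in PBRT16. CDK2, the cyclin-dependent kinase of S phase entry, had values of 2213 and 2473 in parental, 3770.1 and 3255 in PBRT15 and 2302 and 2415 in PBRT16. It rose in PBRT15 by 0.58 ± 0.14 (SE, log2, adjusted p = 0.0265, up to 0.11 without parental 1, parental 2, PBRT15 1 or either PBRT16 library). Of 8 cyclins, inhibitors and CDK1 outside the segment, CDKN1B rose (965 and 1141 in parental, 2254 and 2429.9 in PBRT15 and 1947 and 1690.1 in PBRT16) and CCNA1 fell in both lines. CDKN1B, too, lies on chromosome 12. CDKN1A fell in PBRT16 (4268 and 5155 in parental, 3365 and 5859 in PBRT15 and 252 and 296 in PBRT16). RACGAP1, a GTPase-activating protein of cytokinesis, stood at 2951 and 3215 in parental, 6249.6 and 4424 in PBRT15 and 3613 and 2542 in PBRT16 and did not pass (adjusted p = 0.0655 in PBRT15). NABP2, a single-stranded DNA-binding repair protein, stood at 707 and 840.0 in parental, 771 and 598 in PBRT15 and 820.4 and 824 in PBRT16, overlapping in both comparisons with parental.

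**Figure D5:**
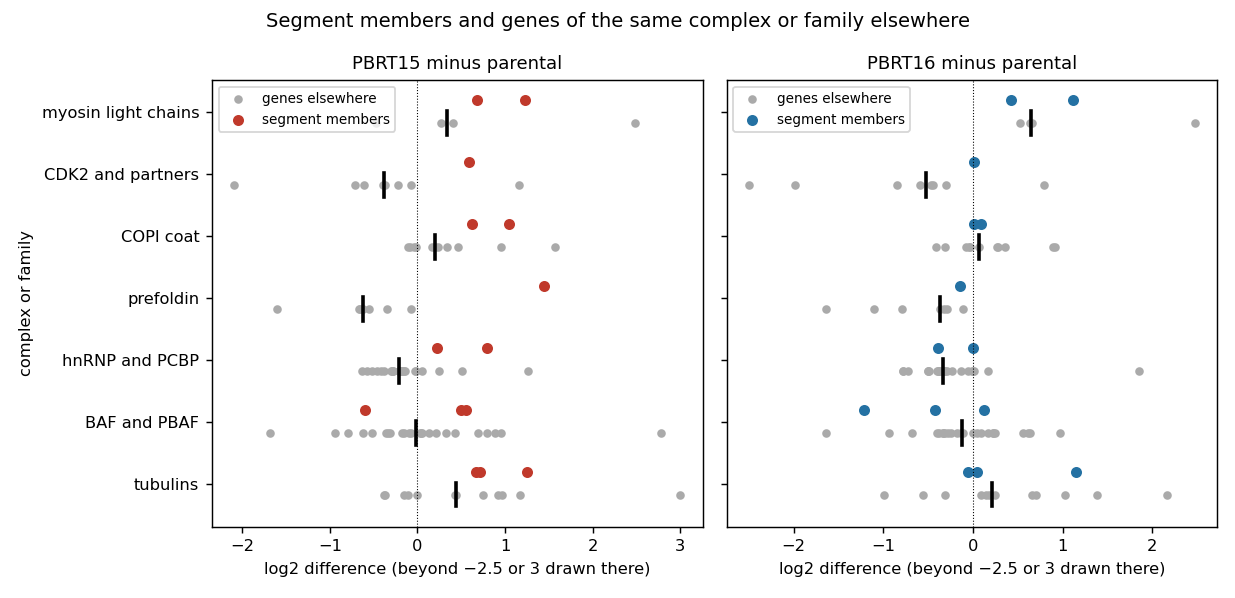
Log2 differences from parental cells (x axis) in PBRT15 (left) and PBRT16 (right) for segment members (color) and genes of the same complex or family elsewhere (gray, bar at the median), by family (y axis). PFDN5 stands at 1.44 in PBRT15 where the other prefoldin genes have a median of -0.62.

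There were 8 members in no role list, and 7 of them rose in PBRT15 and 1 in PBRT16. Of these, SMAGP, a small transmembrane glycoprotein of cell junctions, had values of 109 and 143 in parental, 263 and 265 in PBRT15 and 95.2 and 77.7 in PBRT16. Its PBRT15 level rose by 1.08 ± 0.19 (SE, log2, adjusted p = 0.0109, up to 0.0533 without either PBRT15 library). SMAGP reached the mean threshold for members only through PBRT15, where it was high, so no support is drawn from it.

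Members were also divided by mean value and by strand. In PBRT15 the median log2 difference from parental was 0.70, 0.72 and 0.66 in the 37 members of lowest, middle and highest mean, and 0.76 and 0.66 for the 56 on the plus and 55 on the minus strand. Genes of the segment outside the rule were looked at as well. The 8 left out by symbol had a median of 0.77 in PBRT15 and -0.07 in PBRT16, with ERBB3, a SOX10-regulated receptor, at 1291 and 1089 in parental, 3.84 and 4.06 in PBRT15 and 0.956 and 4.99 in PBRT16. The 27 protein-coding genes under the mean threshold that passed the filter on low values had medians of 1.03 and 0.28, and 26 genes of other biotypes 0.51 and 0.18. Those 27 and 26 passed in part through the group where they were high, and no support is drawn from them. The melanosome gene PMEL, the kinase gene LRRK2 and KRT7 lie in the segment but had means of 11.2, 6.97 and 11.3 and are not members.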

How the data were processed

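Total RNA from 6 samples was made into strand-specific TruSeq libraries, 2 per group, and the submitters' processing notes name STAR 2.6.1a, Picard, RSEM, DESeq2 and GRCh38. The authors deposited 1 table per library with a normalized signal per gene ID, which is neither a raw count nor a whole multiple of 1, with a normalization step that the sources do not name. The read depth is therefore unknown and a count test could not be used. Whether reads were assigned by strand is also not given, so overlapping neighbors (for example TUBA1A and TUBA1C, FMNL3 and TMBIM6, ORMDL2 and DNAJC14) are uncertain.

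Of 60662 gene IDs, 45 pseudoautosomal copies were left out and 60357 matched GENCODE release 44 without the version suffix. Among members, 68 of 111 matched with it. A gene was tested (16565 genes) where 2 or more libraries reached a value of 10 and the 6 values summed to 15 or more, on log2(value + 1) with limma 3.58.1 in R 4.3.3, all 3 groups in 1 fit, 3 residual and 1.89 prior degrees of freedom, and Benjamini-Hochberg adjustment over all of them. Folds of low genes are understated by this scale. A call is an adjusted p of at most 0.05. With 1 library left out, the lone library of a group is assumed to vary like the others. The script was tested on simulated data.

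The members, role lists, partner lists and marker lists were chosen with earlier results of these data known, and the roles of 22 genes were corrected by function after their values were seen. Named members are the 5 largest rises and falls per comparison among those without overlap, the 2 of highest mean per role, 23 names fixed in the design, and those at the edges and at the mean threshold. From the partner lists, the largest rise and fall per comparison was named, and other names are given where a count was 5 or fewer. Promoters come from RefSeq (GRCh38.p14). Alternatives were other pseudocounts, scalings, filters, samples in the fit, a replicate block, ID matching, member thresholds and leaving out each library.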

Additional observations from a re-analysis of the deposited data

Results flagged for a closer look

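For 10 named members both PBRT15 libraries lay above and both PBRT16 libraries below both parental libraries, which are opposite directions under the same contrast with parental cells. None of the 10 passed at an adjusted p of at most 0.05 in both lines. Outside the 10, PRPF40B, SLC11A2 and EIF4B had the same order and were called in both lines. Their log2 rises in PBRT15 were 0.87, 0.59 and 0.41, and their differences in PBRT16 were -0.69, -0.58 and -0.50. Each of these calls was lost when some single library was left out. Of the 10 named members, the calls were as follows. CBX5 passed only as a fall in PBRT16, HNRNPA1 and VDR passed in neither line, and the others passed only as rises in PBRT15. This order places PBRT16 below PBRT15, as the choice of the segment favors, so its frequency among members tests nothing. The difference between the contrasts was not tested, because PBRT16 against PBRT15 delimited the segment, and both contrasts share the parental libraries. The log2 differences in PBRT15 and then PBRT16 were 0.49 and -0.42 for ARID2, 0.0628 and -0.65 for CBX5, 0.22 and -0.38 for HNRNPA1, 1.44 and -0.14 for PFDN5, and 0.65 and -0.44 for PFKM. They were 0.52 and -0.19 for RNF41, 1.08 and -0.53 for SMAGP, 0.64 and -0.28 for SP1, 0.66 and -0.0590 for TUBA1B, and 0.70 and -0.82 for VDR.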

How the results depend on the processing

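In PBRT15 the median stayed above 0 and rises outnumbered falls in every setting run. In PBRT16 against parental cells the median is near 0 and neither its sign nor the balance of calls held, with 17 higher and 21 lower under library-total scaling, 20 and 21 with a pseudocount of 5, 8 and 10 without PBRT16 2, and 9 and 9 without parental 2. For PBRT15 against parental (70 higher, 4 lower, median 0.71), the counts were 42 and 2 with version-matched IDs, which keep fewer members, 35 and 1 with a fold of at least 2 required, and 2 lower both without a filter and with a member mean of at least 500. Leaving out 1 library gave 46 to 62 higher and 1 to 3 lower, and a median of 0.702 to 0.741. The median was 0.751 with upper-quartile and 0.646 with library-total scaling. For PBRT16 against parental (20 higher, 17 lower, median -0.06), the counts were 8 and 8 without a filter, 11 and 9 with version-matched IDs, 10 and 4 with a fold of at least 2, and 11 lower with a member mean of at least 500. Leaving out 1 library gave 8 to 17 higher and 7 to 17 lower, and a median of -0.0598 to -0.0339. That median was 0.0765 with upper-quartile scaling, -0.0803 with library-total scaling, -0.000327 with a member mean of at least 50 and -0.0297 with one of at least 500. For PBRT16 against PBRT15 (67 lower, median -0.79), where the choice of the segment fixes the direction and the counts test nothing, 23 were lower without a filter, 37 with 4 libraries in the fit, 37 with version-matched IDs, 43 with a member mean of at least 500, 30 with a fold of at least 2 and 10 to 37 with 1 library left out. The median was -0.707, -0.759 and -0.759 with upper-quartile scaling, library-total scaling and a member mean of at least 500, and -0.824 to -0.750 with 1 library left out. Where fewer samples, fewer members or a stricter rule do not themselves set the change, the cause was not tested.

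The replicate numbers pair no samples by the labels, and deviations of same-numbered libraries correlated at 0.0197, 0.0365 and 0.135. With the replicate number as a block, 66 members were higher and 3 lower in PBRT15, 18 and 15 in PBRT16, and 46 lower in PBRT16 against PBRT15. A trend in the prior spread, added after seeing the data, gave 80 and 4, 23 and 25, and 87 lower. For single named members, 1332 of 1468 recomputed results kept their call, 116 lost it, 20 gained it and none reversed a call. The deposited signal gives no depth, and 2 libraries per group limit the precision of every value.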
